A study of Mus musculus with 16 samples.

Results

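The main effect of gemcitabine (GEM) on gene expression in pancreatic tumors was measured over 16 arrays, of which 8 came from GEM-treated and 8 from vehicle-treated tumors. All 16 arrays of the experiment were used, and the members were chosen by the treatment labels alone. Within each arm, 4 arrays came from mice given agonist anti-CD40 Ab of the mIgG1 isotype and 4 from mice given a control IgG. This gave the groups control (vehicle and control IgG), anti-CD40 (vehicle and anti-CD40 Ab), GEM (GEM and control IgG) and GEM/anti-CD40 (both agents). The antibody was a covariate of the fit, so that the GEM effect is the difference between GEM and vehicle averaged over both antibody backgrounds. GEM was given at 120 mg per kg on treatment days 1, 5 and 12, the antibodies on days 3, 4, 6 and 14, and tumors were taken on day 22 or 23 after inoculation. In every group PDA30364 cells in Matrigel had been placed under the skin of the flank of C57BL/6-Ly5.1 mice aged 6 to 12 weeks. PDA30364 is 1 cell line from a pancreatic tumor of a genetically engineered mouse, so all tumors share 1 tumor genotype and none grew in the pancreas. 1 animal number stands in the titles of both GEM replicate 3 and GEM replicate 4, although the study describes 4 mice per group. Both arrays were kept.

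GEM is a deoxycytidine analog. It enters cells through nucleoside transporters such as the product of Slc29a1, is phosphorylated by deoxycytidine kinase (Dck), and blocks DNA synthesis and ribonucleotide reductase (Rrm1, Rrm2), while cytidine deaminase (Cda) inactivates it. In tumor-bearing mice it is also known for its action on dividing immune cells, and CD40 is a receptor through which dendritic cells and macrophages are activated. Granzymes, the genes that lead the results below, are serine proteases stored in the granules of cytotoxic T cells and natural killer (NK) cells. In the mouse, Gzmc, Gzmd, Gzme, Gzmf and Gzmg lie next to Gzmb in a cluster on chromosome 14.

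Across both backgrounds GEM-treated tumors had higher expression of Gzmc, a member of this cluster, and no other of the 45037 probe sets tested passed an adjusted p of 0.05 (limma with Benjamini-Hochberg adjustment, 1 higher and 0 lower, 0.00222% of those tested). Before adjustment 2464 of the 45037 were at p below 0.05, near the share that this threshold allows by chance. Of these, 1105 probe sets were higher and 1359 lower. Over the 18193 named genes, each represented by its brightest probe set, these were 546 higher (3.00%) and 450 lower (2.47%), and the median log2 change of all genes was 0.00375. Within the control IgG and anti-CD40 backgrounds the median of all genes was -0.0025 and 0.005. In these backgrounds 22332 and 20798 of the 45037 probe sets were above 0. The arrays were RMA values on the log2 scale, so a log2 change of 1 is a doubling of signal. The deposited tables hold no detection calls, and the number of arrays limits the precision.

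As a check of the tissue, the ductal keratin Krt19 lay between 12.66 and 13.32 on all arrays, and the mean of 11 pancreatic acinar genes between 5.28 and 5.62. Genes of skin keratinocytes stood high in control replicate 2 (list mean 8.35) and anti-CD40 replicate 2 (6.66), against 4.78 to 5.68 on the other arrays. Genes of skeletal muscle stood high in GEM/anti-CD40 replicate 4 (11.6, against 4.57 to 7.39). These 3 arrays were kept, and values without them are given for the genes whose call they change and for the larger shifts.

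The promoters of Gzmc to Gzmg and of their neighbor Gzmb are shown first. Gzmc to Gzmg had the largest log2 changes among the granzymes and resemble each other in sequence. Each run below is the 300-base RefSeq window around the gene's start (GRCm38.p6), read 5′ to 3′ on the gene's own strand. Capitals mark every match to TGTGGT, the core letters of a Runx site, or to TGANTCA, the letters of an AP-1 site, on either strand. Both motifs were picked after the array values were seen.
Gzmc (chr14:56234608-56234907, minus strand): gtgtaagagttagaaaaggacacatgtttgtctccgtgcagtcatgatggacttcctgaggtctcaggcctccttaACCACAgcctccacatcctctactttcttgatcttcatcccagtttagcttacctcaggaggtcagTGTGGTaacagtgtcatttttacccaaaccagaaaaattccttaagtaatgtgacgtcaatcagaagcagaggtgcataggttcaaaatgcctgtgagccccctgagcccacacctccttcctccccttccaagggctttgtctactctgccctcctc
Gzmd (chr14:56132544-56132843, minus strand): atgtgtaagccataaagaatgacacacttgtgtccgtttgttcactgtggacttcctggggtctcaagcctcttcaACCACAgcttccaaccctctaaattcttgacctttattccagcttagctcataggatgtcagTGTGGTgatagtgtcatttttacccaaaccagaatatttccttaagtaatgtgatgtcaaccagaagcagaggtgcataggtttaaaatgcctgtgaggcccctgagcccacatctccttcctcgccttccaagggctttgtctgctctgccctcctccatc
Gzme (chr14:56120576-56120875, minus strand): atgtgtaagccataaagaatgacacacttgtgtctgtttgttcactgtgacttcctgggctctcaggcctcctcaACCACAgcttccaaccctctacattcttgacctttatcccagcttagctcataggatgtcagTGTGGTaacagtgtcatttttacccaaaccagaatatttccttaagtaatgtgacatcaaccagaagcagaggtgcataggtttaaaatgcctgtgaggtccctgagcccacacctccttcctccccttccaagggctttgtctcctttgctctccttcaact
Gzmf (chr14:56211358-56211657, minus strand): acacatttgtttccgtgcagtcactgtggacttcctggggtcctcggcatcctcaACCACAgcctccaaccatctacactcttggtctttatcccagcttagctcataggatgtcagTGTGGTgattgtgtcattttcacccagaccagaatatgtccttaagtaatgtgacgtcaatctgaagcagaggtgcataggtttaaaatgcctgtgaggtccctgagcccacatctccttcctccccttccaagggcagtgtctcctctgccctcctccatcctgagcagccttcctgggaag
Gzmg (chr14:56159530-56159829, minus strand): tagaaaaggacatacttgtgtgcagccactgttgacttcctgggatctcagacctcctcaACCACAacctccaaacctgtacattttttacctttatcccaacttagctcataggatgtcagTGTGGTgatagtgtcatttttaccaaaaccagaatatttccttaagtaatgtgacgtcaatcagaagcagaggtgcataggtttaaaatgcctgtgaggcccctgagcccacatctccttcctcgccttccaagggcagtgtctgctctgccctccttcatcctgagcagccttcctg
Gzmb (chr14:56262285-56262584, minus strand): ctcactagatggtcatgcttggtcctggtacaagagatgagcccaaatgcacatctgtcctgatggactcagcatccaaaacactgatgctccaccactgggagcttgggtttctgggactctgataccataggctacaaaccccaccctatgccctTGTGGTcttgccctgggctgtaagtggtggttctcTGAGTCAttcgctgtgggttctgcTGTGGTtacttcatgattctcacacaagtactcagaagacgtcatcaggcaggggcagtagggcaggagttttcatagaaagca

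All 5 promoters from Gzmc to Gzmg held 2 Runx matches, while 18.9% of 27025 genes with a promoter in the table held any. None of the 5 held the AP-1 letters, which 8.97% of these 27025 genes held, and the Gzmb promoter held both kinds. In pairwise alignments Gzmd, Gzme, Gzmf and Gzmg shared 76.3% to 93.4% of aligned columns, and Gzmc shared 73.5% to 82.7% with these. Gzmb shared 43.5% to 47.8% with the other 5. These matches and shares describe the letters only.

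Gzmc rose 3.95-fold with GEM. Its log2 signal was 5.72, 6.91, 5.60 and 5.0 in control tumors and 5.37, 6.28, 6.52 and 5.49 with anti-CD40 Ab alone. It was 7.44, 7.80, 7.53 and 7.71 with GEM and 7.80, 8.80, 7.70 and 7.96 with GEM/anti-CD40 Ab. The lowest GEM-treated tumor stood above the highest vehicle-treated tumor, so the arms did not overlap. The log2 change was 1.98 (SE 0.245, 95% confidence interval 1.46 to 2.50, adjusted p = 0.0205 by limma), with 1.81 in the control IgG background and 2.15 in the anti-CD40 background. Gzmc has 1 probe set on the array. Its adjusted p lay between 4.84e-04 and 0.0824 when single arrays were left out and was under 0.05 in 8 of these 16 fits, and it was 0.0679 with GEM replicates 3 and 4 averaged to 1 sample.

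Gzmd, Gzme, Gzmf and Gzmg had log2 changes from 1.16 to 2.465 that did not pass. Gzmd was at 5.81, 8.82, 6.96 and 5.03 in control, 8.94, 8.86, 8.77 and 8.93 with GEM, 5.36, 7.45, 7.82 and 6.28 with anti-CD40 Ab and 8.59, 10.07, 9.03 and 8.63 with the combination. Its log2 change was 2.29 (SE 0.456, adjusted p = 0.450), and its 2 probe sets gave 2.29 and 2.35. GEM-treated tumors lay close together for Gzmd, while vehicle-treated tumors spread over more than 3 log2 units. Gzmg showed the same spread, with 3.84 to 8.36 (median 6.405) in vehicle-treated and 8.21 to 9.85 (median 8.44) in GEM-treated tumors, a log2 change of 2.465 (SE 0.536, adjusted p = 0.569). Gzmf lay at 5.29 to 8.26 in vehicle-treated and 7.69 to 9.46 in GEM-treated tumors, with a log2 change of 1.865 (SE 0.378, adjusted p = 0.450). Gzme lay at 6.60 to 8.89 and 8.07 to 9.30, with a log2 change of 1.16 (SE 0.310, adjusted p = 0.910).

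For Gzmd, Gzme, Gzmf and Gzmg the vehicle-treated tumors that reached into the GEM range included control replicate 2, the array with skin genes. Its values were 8.82, 8.72, 8.26 and 8.36, each the highest of the control group. Without this array Gzmd (2.62) and Gzmf (2.15) also passed, both with an adjusted p of 0.0406, and without all 3 arrays with skin or muscle genes Gzmc (2.24, 0.00339), Gzmd (2.85, 0.0399), Gzmf (2.37, 0.0253) and the chemokine Cxcl3 (1.01, 0.0253) passed. The changes of the 5 genes were alike in both backgrounds, from 1.16 to 2.61 with control IgG and from 1.17 to 2.35 with anti-CD40 Ab. No interaction with the antibody passed for any of them (unadjusted p = 0.509 to 0.991). The probe sets that represent Gzmd and Gzme are of the _x_at kind, whose probes can match other transcripts, so signal between these near-identical paralogs may be shared.

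**Figure D1:**
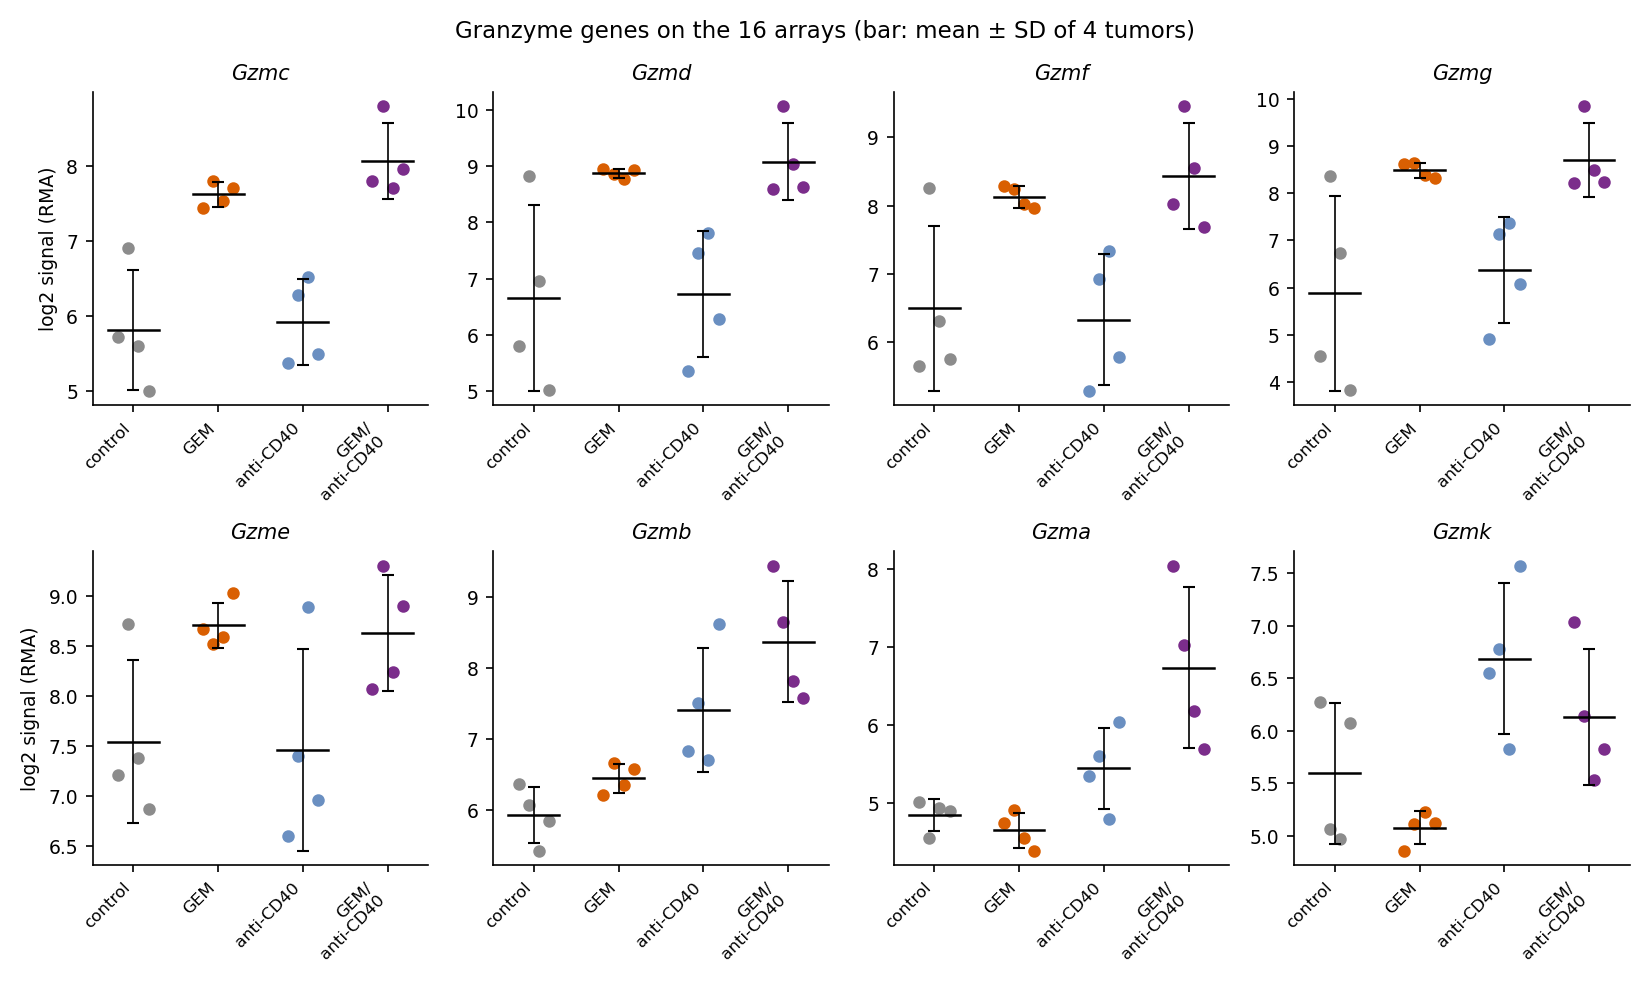
Log2 signal (RMA) of 8 granzyme genes on each of the 16 arrays, with 4 points for each group, a bar for the mean and whiskers for the SD. Gzmc shows no overlap between GEM- and vehicle-treated tumors, control replicate 2 stands at GEM levels for Gzmd to Gzmg, and Gzma and Gzmk do not share the pattern.

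The other granzymes had smaller log2 changes, and none passed. Gzmb, the member of the chromosome 14 cluster best known for starting apoptosis in target cells, had a log2 change of 0.74 (SE 0.286, adjusted p = 0.910). Its values were 6.36, 6.06, 5.42 and 5.84 in control, 6.21, 6.65, 6.34 and 6.57 with GEM, 6.82, 7.50, 6.70 and 8.61 with anti-CD40 Ab and 9.44, 8.64, 7.81 and 7.57 with the combination. All 8 tumors given anti-CD40 Ab stood above all 8 tumors given control IgG for Gzmb, while GEM and vehicle overlapped in both backgrounds. Gzma, a granzyme of another locus, was at -0.20 with control IgG and 1.29 with anti-CD40 Ab, and Gzmk, found in T cells of a less cytotoxic kind, was at -0.52 and -0.55. Gzmn, at 3.05 to 3.42 on all arrays, had a log2 change of 0.145 (unadjusted p = 0.00759), and Gzmm one of -0.01. Perforin (Prf1), which delivers granzymes into cells, was at 0.10 (unadjusted p = 0.160) by its brighter and 0.42 (unadjusted p = 0.00893) by its other probe set, and the granule membrane gene Nkg7 at -0.53.

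The list of cytotoxic and NK cell genes had 22 measured members, of which 17 were above 0 with a median log2 change of 0.12. With control IgG 8 were above 0 (median -0.11), and with anti-CD40 Ab 18 were (median 0.32). In the fit over both backgrounds 6 of the 22 were higher at an unadjusted p under 0.05, against 3.00% of all named genes. Those 6 were Gzmc, Gzmd, Gzmf, Gzmg, Gzme and Gzmb. T cell markers had 17 of 21 below 0 and a median of -0.115, with 4 of them lower and 0 higher at p below 0.05 before adjustment. Over all named genes 2.47% were lower and 3.00% higher at this threshold. The median of the T cell markers was -0.20 with control IgG and -0.05 with anti-CD40 Ab. In bulk tumor RNA, fewer cells of a type and less RNA per cell cannot be told apart. Cd3g, a chain of the T cell receptor complex, was at 7.10, 5.01, 5.57 and 7.39 in control, 4.82, 5.42, 4.40 and 4.89 with GEM, 7.13, 7.39, 6.64 and 8.20 with anti-CD40 Ab and 7.78, 7.48, 6.92 and 5.87 with the combination (log2 change -0.86, SE 0.375, adjusted p = 0.910). The other 3 were Cd3d (-0.63), the coreceptor Cd4 (-0.15) and the kinase Zap70 (-0.115), and none passed. The mean over the T cell list was 5.34 to 5.46 in GEM tumors and 5.47 to 5.91 in control tumors, and with anti-CD40 Ab it was 5.56 to 6.36 with GEM and 5.67 to 6.40 without. The 4 GEM tumors, with the lowest T cell list means of the 4 groups, had Gzmc values of 7.44 to 7.80. Control replicate 2, high for Gzmd to Gzmg, had a T cell list mean of 5.51. The means of control replicates 1, 3 and 4 were 5.84, 5.47 and 5.91. The NK cell receptor gene Ncr1 lay between 4.13 and 4.81 on all arrays (log2 change 0.06, unadjusted p = 0.512). Other NK cell receptor genes of the list were at 0.28 (Klrk1), 0.23 (Klrd1) and 0.04 and 0.14 (the 2 probe sets of Klrc1), and none passed. Whether the cell makeup of the tumors had a part in the granzyme result was not tested. Among chemokine receptors of T cells, Cxcr6 was at -0.79 and Cxcr3 at -0.29, both lower at an unadjusted p under 0.05 (adjusted p = 0.910).

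After Gzmc, the genes with the smallest p among those higher with GEM were Hacd4, Cxcl3, Ccl9, B4galnt4 and Etnppl, and none passed. Cxcl3, a chemokine that attracts neutrophils, was at 7.07, 7.17, 6.92 and 7.0 in control, 8.18, 7.99, 8.19 and 7.64 with GEM, 7.45, 8.41, 8.34 and 8.06 with anti-CD40 Ab and 8.97, 9.05, 8.90 and 8.31 with the combination. Without anti-CD40 Ab the arms were apart, and with it they overlapped in 1 tumor of the combination. The share of all genes apart without anti-CD40 Ab was not counted. The log2 change was 0.85 (SE 0.139, adjusted p = 0.140), with 0.96 and 0.74 in the control IgG and anti-CD40 backgrounds.

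Ccl9, a chemokine of myeloid cells, was at 7.89, 8.17, 7.95 and 8.31 in control, 8.64, 8.27, 9.07 and 8.79 with GEM, 8.62, 8.31, 9.08 and 8.95 with anti-CD40 Ab and 9.95, 9.82, 9.48 and 9.72 with the combination. GEM alone and anti-CD40 Ab alone gave overlapping levels, and the 4 tumors with both stood above all others. The log2 change was 0.81 (SE 0.132, adjusted p = 0.140), and both probe sets were above 0 (0.73 and 0.81). Ccl6, its neighbor in the chemokine cluster on chromosome 11, was at 0.65 (SE 0.133, adjusted p = 0.450), with 9.03 to 10.44 (median 9.475) in vehicle-treated and 9.39 to 10.93 (median 10.36) in GEM-treated tumors. Cxcl3, Ccl9 and Ccl6 had mean changes above 0 in each background, and their interactions with the antibody had a p of 0.450, 0.144 and 0.233 before adjustment.

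Hacd4 encodes a dehydratase of fatty acid elongation, and its change was small and even. It was at 6.96 to 7.38 (median 7.10) in vehicle-treated and 7.36 to 7.64 (median 7.44) in GEM-treated tumors (log2 change 0.35, SE 0.0561, adjusted p = 0.140). B4galnt4, a glycosyltransferase, was at 6.23 to 6.71 and 6.71 to 7.33 (0.575, SE 0.0948, adjusted p = 0.140), and its arms touched at 1 value. Etnppl, an enzyme that breaks down phosphoethanolamine, was at 5.78, 5.45, 5.48 and 5.36 in control and 6.42, 6.59, 6.34 and 6.67 with GEM. With anti-CD40 Ab it was at 5.47, 5.62, 4.55 and 5.46 without GEM and 5.66, 5.76, 6.14 and 6.01 with it (0.80, SE 0.137, adjusted p = 0.165, and 0.18 by its other probe set). Tcf24, a basic helix-loop-helix factor, differed between the backgrounds. It was at 6.48 to 6.71 in control and 7.34 to 7.57 with GEM, but 6.62 to 7.13 and 6.78 to 7.29 with anti-CD40 Ab, so its change was 0.88 in the first and 0.13 in the second background (interaction unadjusted p = 8.17e-04, not passing after adjustment).

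**Figure D2:**
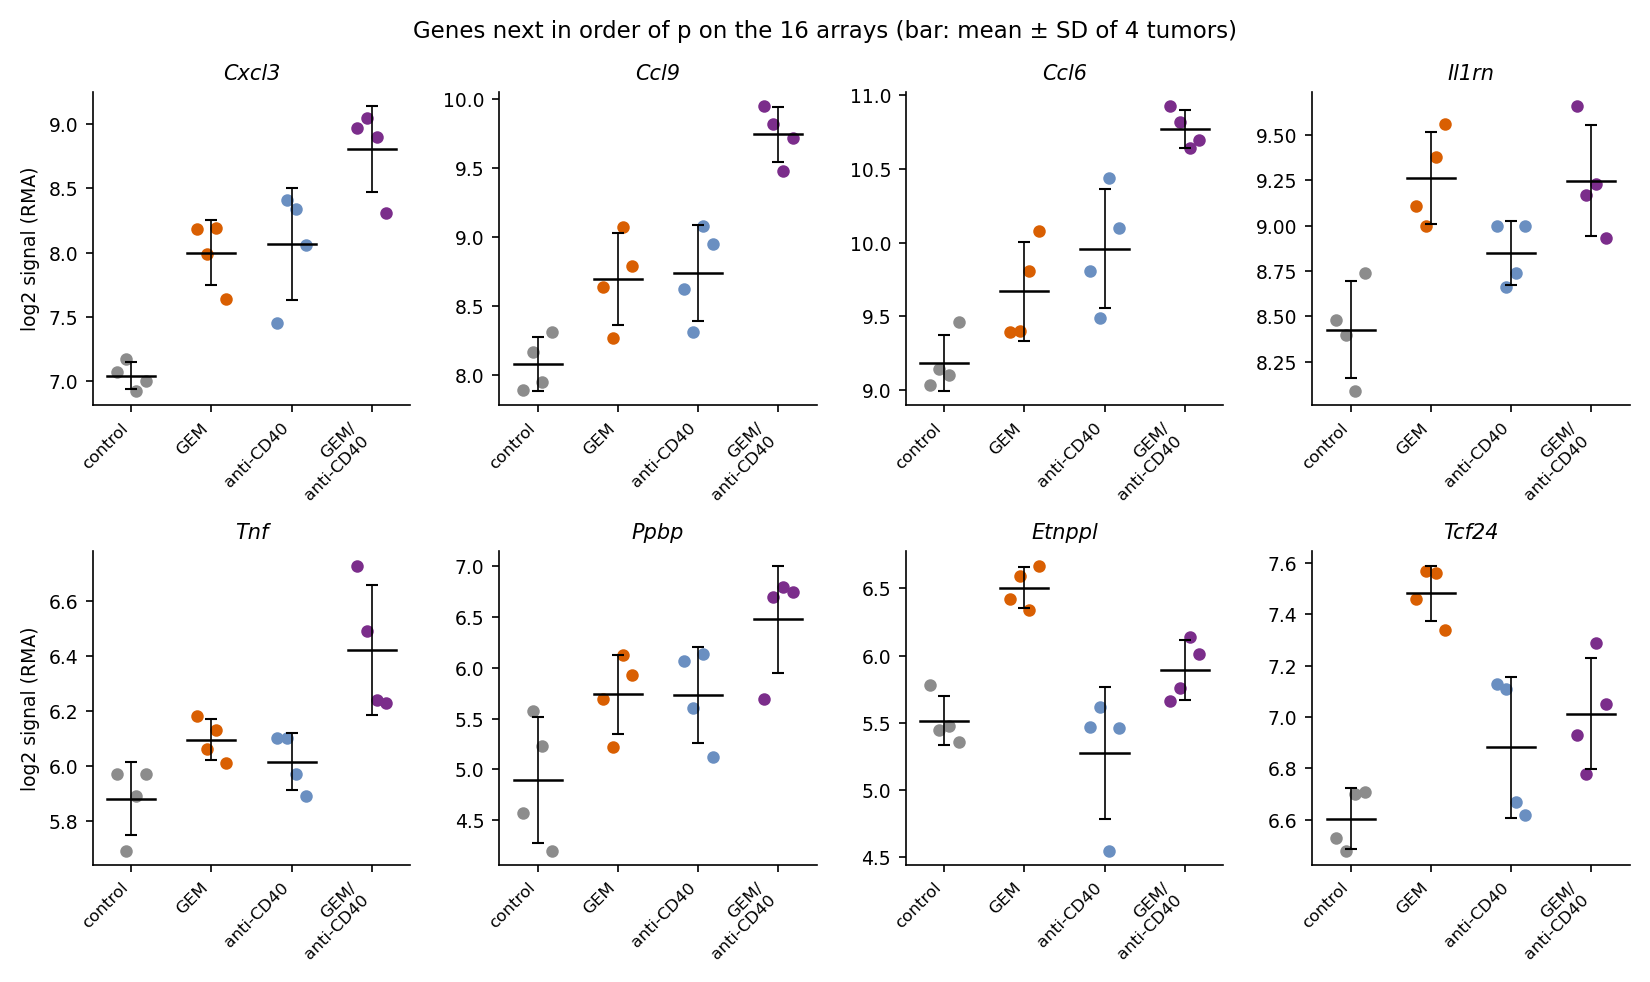
Log2 signal (RMA) of Cxcl3, Ccl9, Ccl6, Il1rn, Tnf, Ppbp, Etnppl and Tcf24 on the 16 arrays, with 4 points for each group, a bar for the mean and whiskers for the SD. Ccl9 and Ccl6 are highest in the 4 tumors given both agents, while Tcf24 is apart from vehicle only without anti-CD40 Ab.

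Members of the inflammatory myeloid list were above 0 in 18 of 18 cases, with a median log2 change of 0.31 against 0.00375 over all genes. At an unadjusted p under 0.05, 5 of the 18 were higher, against 3.00% of all named genes. Il1rn, the antagonist of the interleukin-1 receptor, was at 8.48, 8.40, 8.09 and 8.74 in control, 9.11, 9.0, 9.38 and 9.56 with GEM, 9.0, 8.66, 8.74 and 9.0 with anti-CD40 Ab and 9.66, 9.17, 9.23 and 8.93 with the combination. The arms were apart with control IgG and overlapped with anti-CD40 Ab, and the share of all genes apart with control IgG was not counted. Its log2 change was 0.62 (SE 0.126, adjusted p = 0.450), and all 3 probe sets were above 0 (0.51 to 0.62). The cytokine gene Tnf was at 5.69 to 6.10 in vehicle-treated and 6.01 to 6.73 in GEM-treated tumors, with a log2 change of 0.31 (SE 0.0742, adjusted p = 0.860) and no overlap within either background. Il23a, a subunit of interleukin-23, was at 0.31, and the formyl peptide receptor Fpr2 and the lectin receptor Clec4e at 1.04 and 1.06. Fpr2 and Clec4e were at 1.64 and 1.69 with anti-CD40 Ab and at 0.44 and 0.45 with control IgG, with GEM/anti-CD40 replicate 1 the highest of all arrays for both. Over the list the medians were 0.17 with control IgG, where the list means were 6.40 to 6.59 in control and 6.54 to 6.67 in GEM tumors, and 0.40 with anti-CD40 Ab, where they were 7.01 to 7.41 and 7.23 to 8.74. With control IgG 12 of the 18 genes were above 0, and with anti-CD40 Ab 16 were. The highest list mean was that of GEM/anti-CD40 replicate 1, and without this array the median over both backgrounds was 0.23.

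Neutrophil genes and the chemokines that attract neutrophils were mostly above 0. Of 10 CXC chemokines and related factors 9 were above 0, with a median of 0.21 and with Cxcl3 and Ppbp (0.80, adjusted p = 0.910) higher at an unadjusted p under 0.05. Cxcl1 and Cxcl5 were at 0.26 and 0.21, and at 0.417 and 0.392 without the 3 arrays with skin or muscle genes. Of 17 neutrophil and granulocyte genes 16 were above 0, with a median of 0.19, which was 0.02 with control IgG, 0.43 with anti-CD40 Ab and 0.322 without the same 3 arrays. The antimicrobial granule gene Camp was at 4.44 to 4.80 in control, 4.55 to 4.73 with GEM, 4.55 to 4.68 with anti-CD40 Ab and 5.05 to 5.37 with the combination. Only the tumors given both agents thus stood apart for Camp (interaction unadjusted p = 1.98e-04, not passing after adjustment), and Ngp (0.14 and 1.23 in the 2 backgrounds) and Mcemp1 (0.18 and 1.01) had a like order. The platelet gene Ppbp is also in the platelet list, whose median was -0.02 over 8 genes.

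The Cxcl3 promoter is shown because the CXC chemokine list was searched for GGGAANTTC, the letters of a kappa B site, on both strands. Capitals mark 2 overlapping matches, 1 on each strand.
Cxcl3 (chr5:90785851-90786150, plus strand): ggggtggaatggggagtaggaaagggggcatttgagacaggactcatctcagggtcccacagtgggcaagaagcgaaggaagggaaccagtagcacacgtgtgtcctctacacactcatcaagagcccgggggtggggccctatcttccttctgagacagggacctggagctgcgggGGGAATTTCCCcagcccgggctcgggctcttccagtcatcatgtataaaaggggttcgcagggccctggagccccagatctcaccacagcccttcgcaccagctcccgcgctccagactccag

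These letters were present in 3 of the 8 listed genes with a promoter in the table (Cxcl1, Cxcl2 and Cxcl3), against 1.26% of all genes with a promoter there. Cxcl2 had a log2 change of 0.08, so a match did not go with a large change in each case.

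Macrophage genes were above 0 in 16 of 19 cases (median 0.08, and 0.0088 without GEM/anti-CD40 replicate 1). With control IgG 6 were above 0 (median -0.17), and with anti-CD40 Ab 18 were (median 0.37). In the fit over both backgrounds 3 of the 19 were higher at an unadjusted p under 0.05, against 3.00% of all named genes. Among the 3 were the lysozyme gene Lyz2 (0.41) and the efferocytosis receptor Mertk (0.38). Alternatively activated macrophage genes were above 0 in 14 of 16 cases (median 0.13, and 0.0073 without the 3 arrays with skin or muscle genes). With control IgG 5 of these were above 0 (median -0.08), and with anti-CD40 Ab 15 were (median 0.34). The arginase gene Arg1 was at 0.43 and the chitinase-like gene Chil3 at 0.95. Arg1 had similar changes in both backgrounds (0.38 and 0.49), while Chil3 was at 0.00 with control IgG and 1.91 with anti-CD40 Ab. Dcstamp, which encodes a protein of macrophage and osteoclast fusion, was at 5.76 to 5.99 in control, 6.01 to 6.35 with GEM, 5.83 to 6.16 with anti-CD40 Ab and 6.39 to 7.25 with the combination (0.53, SE 0.122, adjusted p = 0.729). Of 19 dendritic cell genes 12 were above 0 (median 0.09, and -0.0054 without GEM/anti-CD40 replicate 1). With control IgG 5 of them were above 0 (median -0.105), and with anti-CD40 Ab 12 were (median 0.32). The chemokine Ccl22 (0.78) and the costimulatory ligand Cd80 (0.41) were higher and the receptors Flt3 (-0.15) and Xcr1 (-0.25) lower, each with an unadjusted p below 0.05. Mmp12, the macrophage elastase, was at 0.38.

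Interferon gamma genes had changes of opposite sign in the 2 backgrounds. Of all 45037 probe sets, 22332 were above 0 with control IgG and 20798 with anti-CD40 Ab. Over 18 genes of the interferon gamma response, 0 were above 0 with control IgG (median -0.54) and 18 were above 0 with anti-CD40 Ab (median 0.43), and the main-effect median was -0.10. This median ran from -0.248 without GEM/anti-CD40 replicate 1 to 0.0997 without control replicate 4, and it was -0.240 without the 3 arrays with skin or muscle genes. The tryptophan-degrading enzyme Ido1 was at -1.18 and 0.58, the transcription factor Irf8 at -0.20 and 0.94, and Cd274, which encodes PD-L1, at -0.14 and 0.88. Antigen presentation by MHC class II had the same order, with 0 of 11 genes above 0 with control IgG (median -0.51) and 10 with anti-CD40 Ab (0.32). No interaction passed for any probe set (smallest adjusted p = 0.890 by limma). At an unadjusted p under 0.05 there were 2359 of 45037 probe sets, near the share that this threshold allows by chance. Tumors of 1 group also spread widely. The list mean of the interferon gamma response was 9.21, 7.70, 8.03 and 9.47 in control tumors, 7.51, 8.92, 7.90 and 7.85 with GEM, 9.46, 9.44, 9.18 and 9.81 with anti-CD40 Ab and 10.83, 10.23, 9.25 and 9.48 with the combination.

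The type I interferon list had 22 of 26 genes below 0 (median -0.13). At an unadjusted p under 0.05, 4 of the 26 were lower, namely Mx2, Ifit3, Usp18 and Ifit1, against 2.47% of all named genes. With control IgG 1 gene of the list was above 0 (median -0.31), and with anti-CD40 Ab 17 were (median 0.07). Ifit3, an antiviral effector, was at 8.18, 7.80, 7.44 and 7.94 in control, 6.81, 7.01, 6.72 and 6.82 with GEM, 8.69, 8.63, 9.06 and 8.97 with anti-CD40 Ab and 10.03, 8.61, 7.89 and 8.29 with the combination. GEM tumors lay below all control tumors, while with anti-CD40 Ab GEM/anti-CD40 replicate 1 was the highest of all arrays. Its log2 change was -0.57 (SE 0.244, adjusted p = 0.910), from -1.0 with control IgG and -0.13 with anti-CD40 Ab. The letters GAAANNGAA, the core of an interferon-stimulated response element, were held by 8 of the 18 list genes with a promoter in the table (44.4%), Ifit1 and Ifit3 among them. Of all genes with a promoter there, 9.76% held them.

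**Figure D3:**
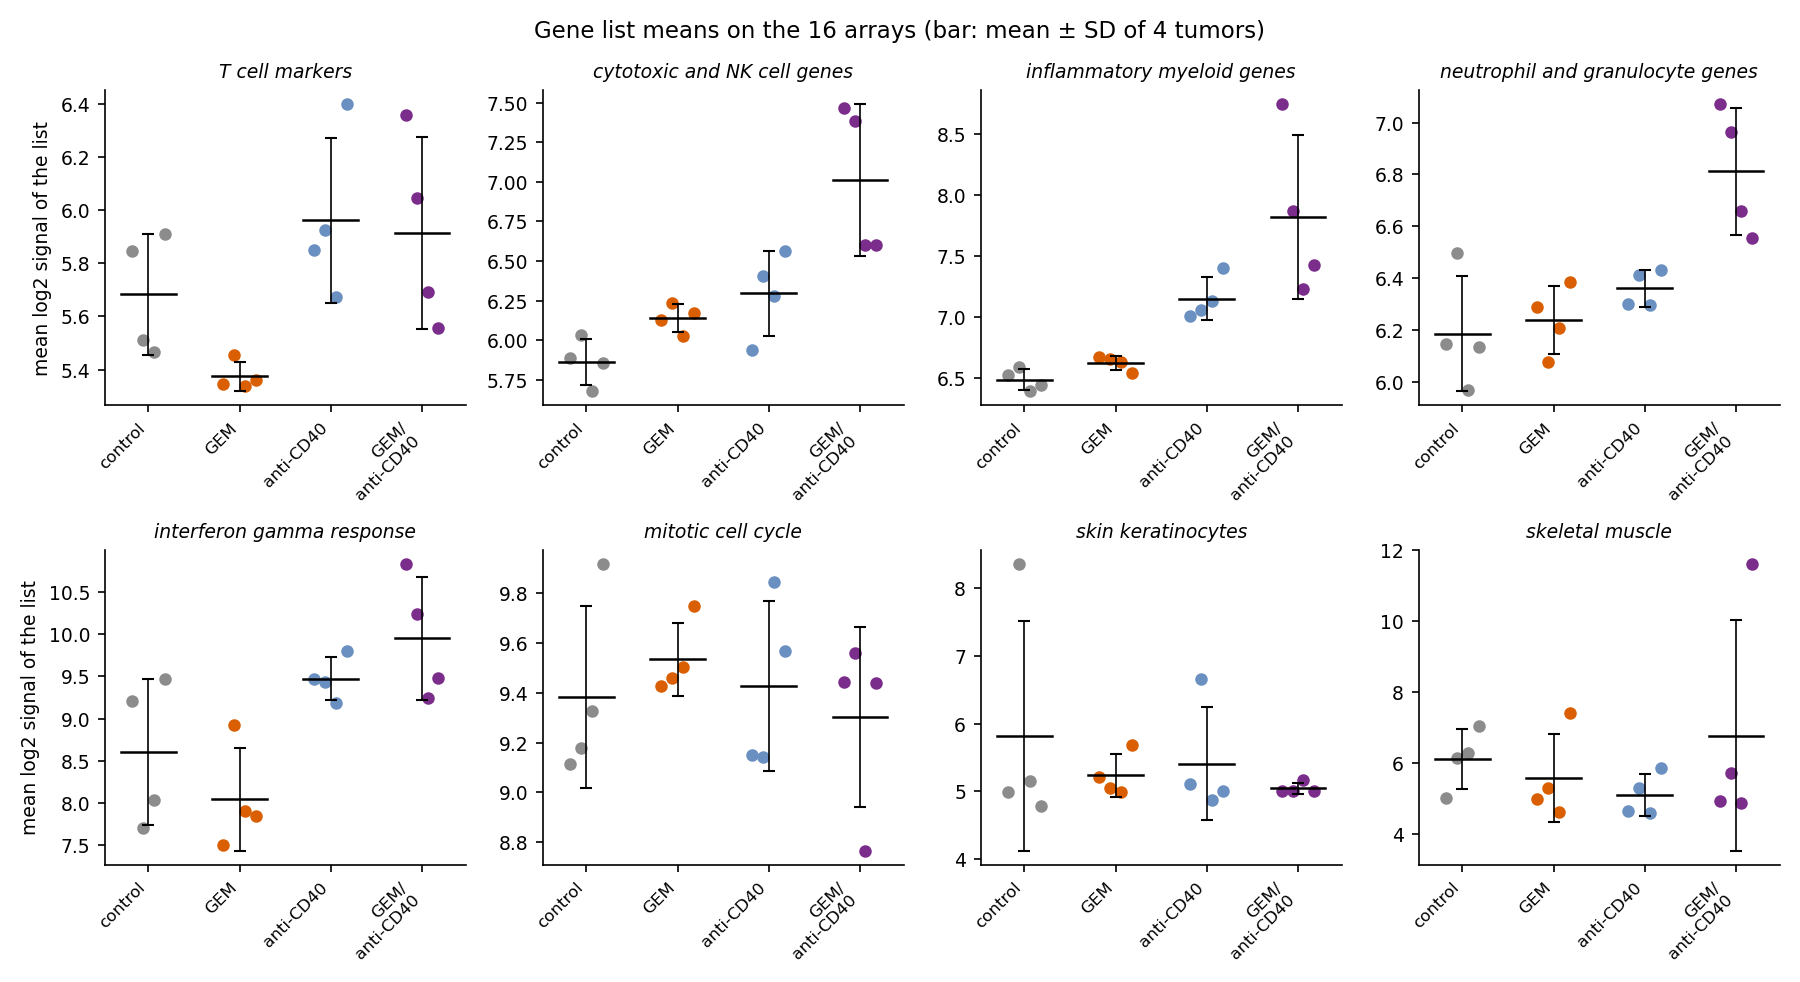
Mean log2 signal of 8 gene lists on the 16 arrays, with 4 points for each group, a bar for the mean and whiskers for the SD. The group means of the interferon gamma, inflammatory myeloid and cytotoxic lists are highest with both agents, although single tumors overlap with anti-CD40 Ab alone for the first 2, and the skin and muscle lists show the single arrays that stand apart.

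Over all probe sets the changes in the 2 backgrounds were not correlated. The log2 changes with control IgG and with anti-CD40 Ab, which share no arrays, had a Pearson r of -0.0217 and a Spearman rho of -0.0435 over 45037 probe sets, and 49.3% had the same sign. Among the 100 probe sets with the smallest p with control IgG, 66 had the same sign with anti-CD40 Ab, and among the 100 with the smallest p with anti-CD40 Ab, 62 had the same sign with control IgG. Neither background alone had a probe set that passed (smallest adjusted p = 0.0606 with control IgG and 0.937 with anti-CD40 Ab by limma). At an unadjusted p under 0.05 there were 2578 and 2072 of 45037, near the share that this threshold allows by chance. Genes whose GEM-treated tumors stood above vehicle-treated tumors within both backgrounds numbered 7 of 18193 (0.0385%), which were Dcstamp, Etnppl, Gzmc, Hacd4, Sar1a, Tnf and Tssc4. Those below numbered 3 (0.0165%), which were Panx2, Piezo2 and Ubqlnl. Genes apart within a single background, such as Tcf24, Cxcl3, Il1rn and Ifit3 with control IgG, were not counted. Also not counted were genes whose tumors with both agents stood above all others, such as Ccl9 and Camp. Over both backgrounds at once, all 8 GEM-treated tumors stood above all 8 vehicle-treated tumors for 2 genes (0.0110%), Gzmc and Sar1a, and below for 2 (0.0110%), Panx2 and Piezo2. Apart from Gzmc these were small, with log2 changes of 0.12 for Sar1a, a GTPase of vesicle transport, -0.11 for the channel gene Panx2 and -0.18 for the touch channel gene Piezo2.

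**Figure D4:**
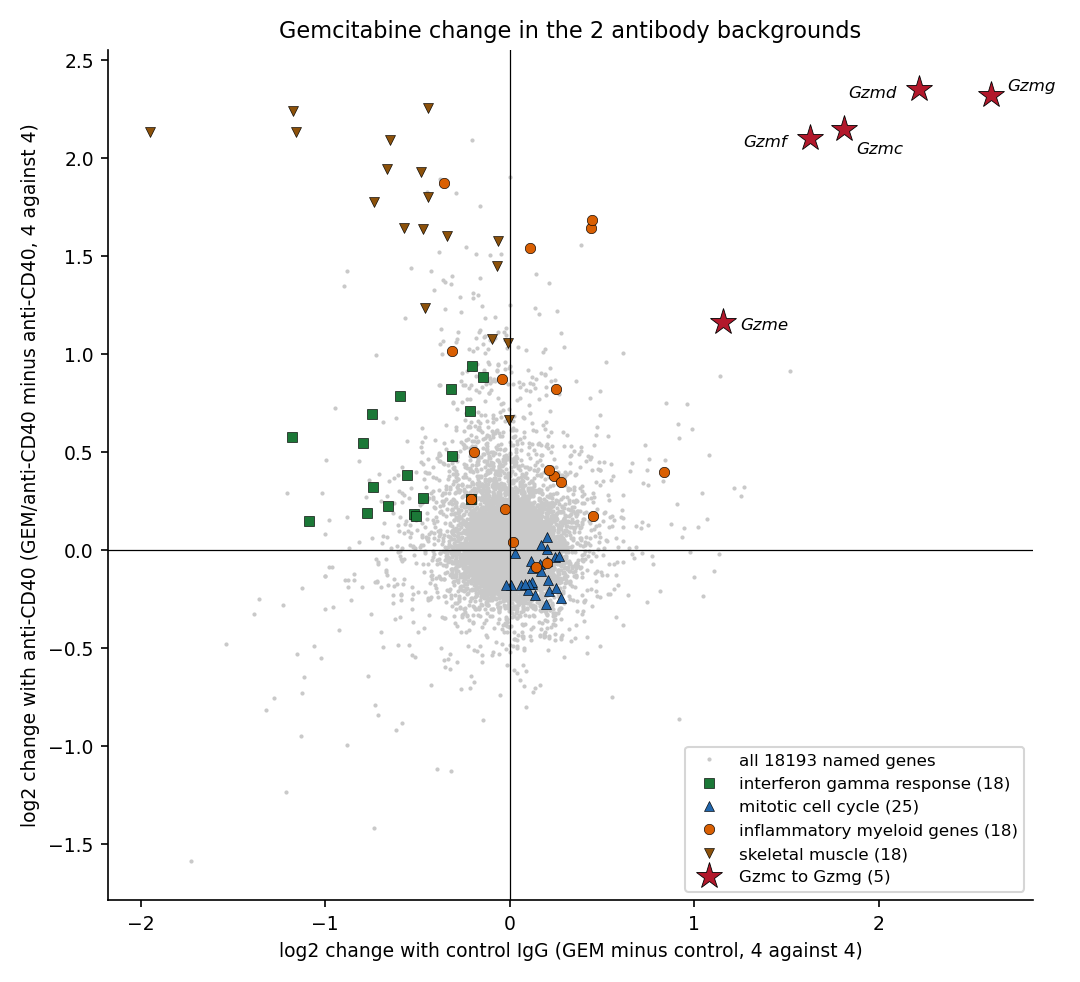
Log2 change with GEM in the anti-CD40 background (vertical axis) against that in the control IgG background (horizontal axis), 4 against 4 tumors each, for 18193 named genes (gray) and 5 gene groups. Gzmc to Gzmg stand at the upper right, interferon gamma genes lie to the left of and above 0, mitotic genes mostly to the right of and below 0, and muscle genes follow GEM/anti-CD40 replicate 4.

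None of the genes lower with GEM passed. The 5 with the smallest p were Gm16226 (-0.19, adjusted p = 0.534), Vstm4 (-0.55, 0.676), Dnajc17 (-0.23, 0.838), Cyct (-0.175, 0.910) and Pkhd1 (-0.35, 0.910). Vstm4, a membrane protein of the immunoglobulin superfamily, was at 5.16 to 6.39 (median 5.92) in vehicle-treated and 5.04 to 5.65 (median 5.34) in GEM-treated tumors, and its change was alike in both backgrounds (-0.60 and -0.49). For Dnajc17 the other probe sets did not share the direction, with 2 of 3 above 0. Pdk1, a kinase that restrains pyruvate entry into mitochondria, was at -0.23 with all 4 probe sets below 0, and the hypoxia and glycolysis list had 17 of 22 genes below 0 (median -0.04, and -0.086 without the 3 arrays with skin or muscle genes). Slco2a1, a prostaglandin transporter, was at -0.48 with all 4 probe sets below 0, from -0.84 with control IgG and -0.12 with anti-CD40 Ab. The B cell surface gene Cd72 was at -0.35.

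Genes of the tumor epithelium had 14 of 18 members above 0 (median 0.09). The adhesion gene Epcam was at 10.50 to 12.14 (median 11.22) in vehicle-treated and 11.31 to 12.34 (median 11.955) in GEM-treated tumors (0.54, SE 0.223, adjusted p = 0.910), although its other probe set was at 0.09. The epithelial factor Ehf (0.44) and the chloride channel gene Cftr (0.36) were also higher at an unadjusted p under 0.05, while the ciliary gene Pkhd1 was lower. The keratin Krt19 was at 0.03. Collagens were below 0 in 16 of 19 cases (median -0.12, and -0.202 without the 3 arrays with skin or muscle genes), with 14 above 0 with control IgG and 1 with anti-CD40 Ab, and Col11a1 was the only one lower at an unadjusted p under 0.05 (-0.50). The glutathione peroxidase gene Gpx2 was at 0.61 (unadjusted p = 0.0274).

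Genes through which GEM acts had log2 changes near 0 at the time of sampling, by their brightest probe sets. Of 22 genes of uptake, activation and targets, none had an unadjusted p under 0.05 (0 higher, 0 lower), with a median of -0.02 and a range of -0.12 to 0.12. The log2 change was -0.11 for Dck (95% interval -0.31 to 0.09), -0.12 for Cda (-0.34 to 0.11) and 0.03 for Slc29a1 (-0.11 to 0.18). For the ribonucleotide reductase subunits it was -0.01 for Rrm1 (-0.18 to 0.17) and -0.06 for Rrm2 (-0.28 to 0.16), so that a 2-fold change lies outside these intervals. A dimmer probe set of the nucleoside transporter gene Slc29a2 was at -0.12 (unadjusted p = 0.0273, adjusted p = 0.910), and without the 3 arrays with skin or muscle genes Cda was at -0.0044 and Slc29a1 at 0.072.

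Gene lists of DNA damage and of proliferation had medians near 0 over both backgrounds. Of 27 p53 targets and damage response genes 19 were above 0 with a median of 0.03, and the exonuclease gene Aen (0.16, with 1 of its 4 probe sets below 0) was the only one at an unadjusted p under 0.05. With control IgG 15 of the 27 were above 0 (median 0.04), and with anti-CD40 Ab 20 were (median 0.10). The list mean was 8.30 to 8.53 in control and 8.35 to 8.49 with GEM. It was 8.35 to 8.45 with anti-CD40 Ab and 8.46 to 8.55 with the combination. The cell cycle inhibitor Cdkn1a was at 0.01 (95% interval -0.30 to 0.33), from -0.33 with control IgG and 0.36 with anti-CD40 Ab (interaction unadjusted p = 0.0134), and Mdm2, which restrains p53, at 0.08 (-0.03 to 0.19). The 3 probe sets of Mdm2 did not share a direction, and the dimmest, with a mean log2 signal of 3.63, was at -0.25 (adjusted p = 0.383). Mitotic genes had a main-effect median of 0.015 over 25 genes (-0.046 to 0.104 without single arrays), with 24 above 0 with control IgG (median 0.165) and 3 with anti-CD40 Ab (median -0.165). Their list mean ranged from 9.12 to 9.92 in control, 9.43 to 9.75 with GEM, 9.14 to 9.84 with anti-CD40 Ab and 8.77 to 9.56 with the combination, so the groups overlapped.

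**Figure D5:**
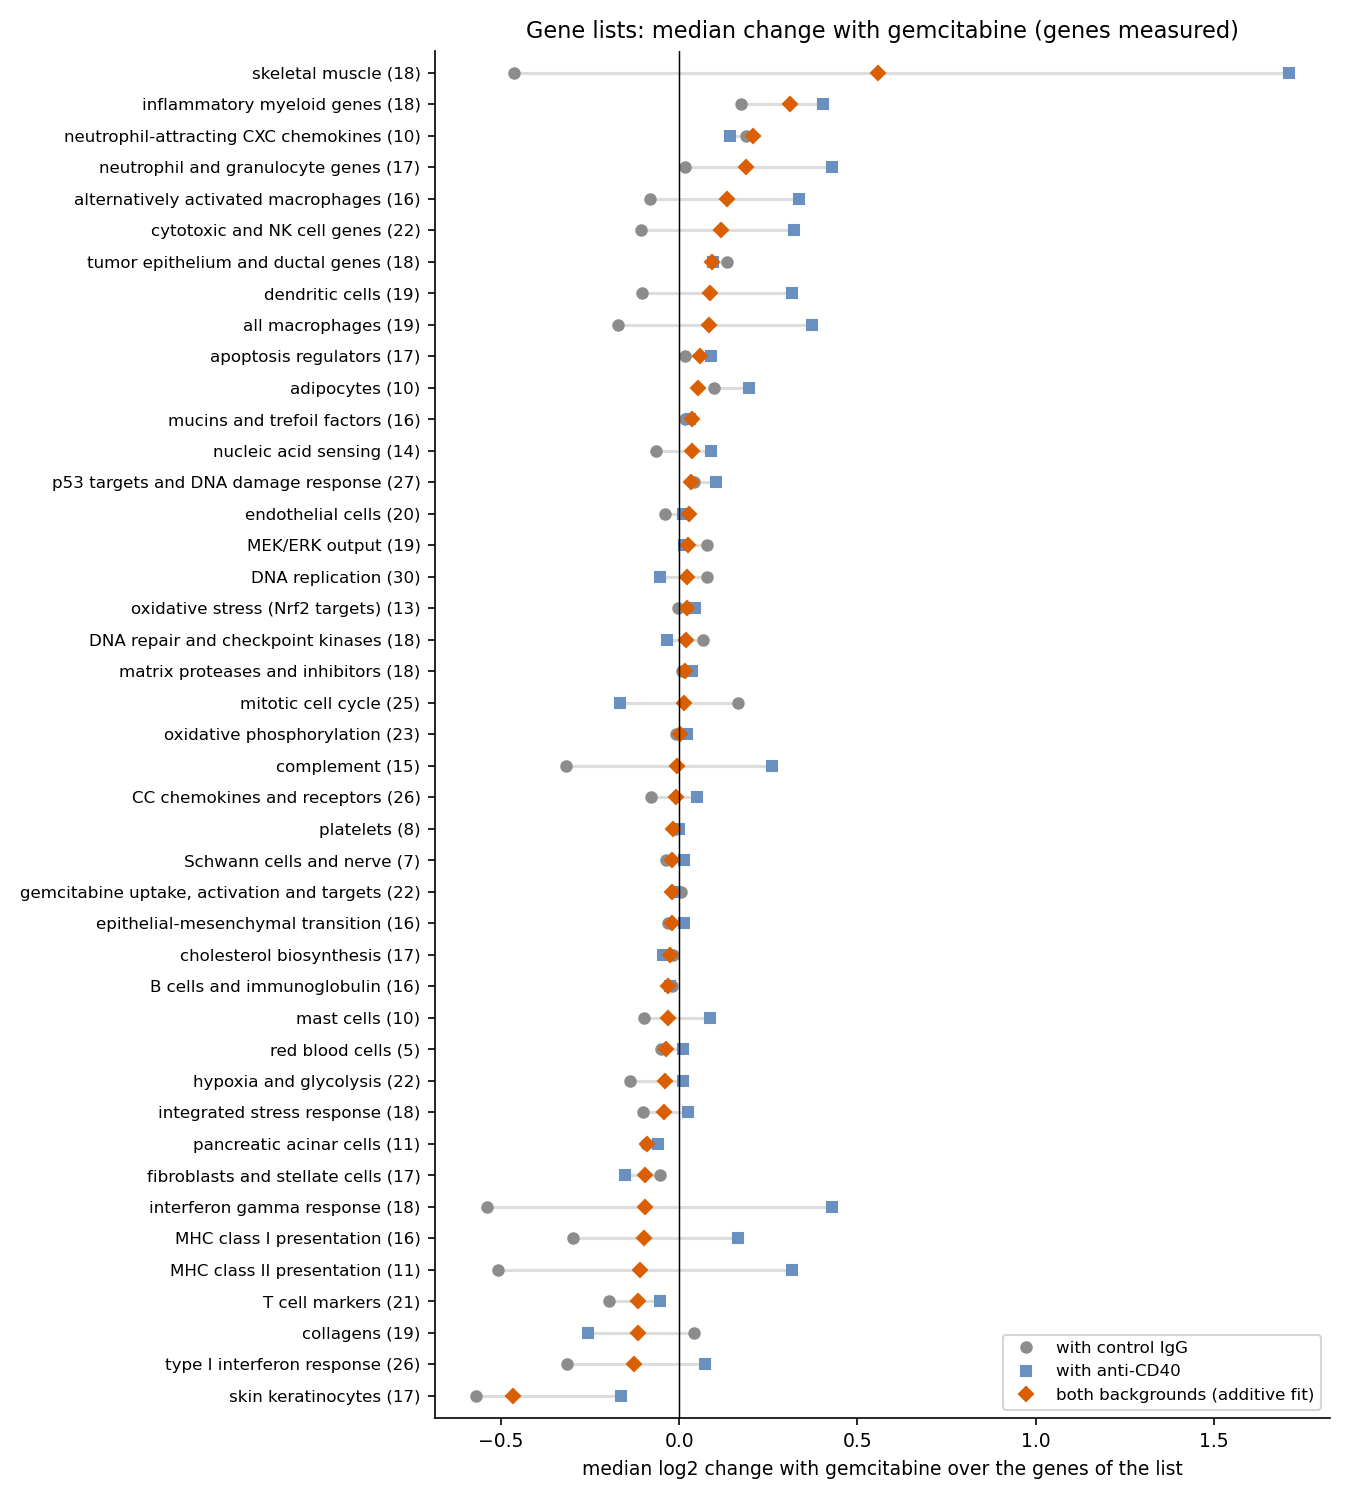
Median log2 change with GEM over the measured genes of 43 lists (number of genes in parentheses), for both backgrounds together (diamonds), with control IgG (circles) and with anti-CD40 Ab (squares). Inflammatory myeloid and CXC chemokine lists lie above 0 in both backgrounds, interferon and MHC lists lie on opposite sides, and the skeletal muscle list (-0.46 and 1.71) follows 1 array.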

How the data were processed

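Whole-tumor RNA was hybridized to 16 Affymetrix mouse genome arrays with a 3′IVT Plus kit. The study describes 4 mice per group, but 1 animal number stands on the titles of 2 GEM arrays. The deposited values are log2 intensities that the authors obtained with RMA (background correction, quantile normalization, summary per probe set) and give to 2 decimals. They were used as deposited. Of 45101 probe sets, 64 array controls were left out. Gene names came from the platform annotation, updated through RefSeq (GRCm38.p6), and gave 34945 probe sets with 1 symbol, 932 with several and 9160 without a name. Probe sets with several symbols were not named.

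GEM against vehicle was fitted with limma 3.58.1 in R 4.3.3, with the antibody as a covariate and Benjamini-Hochberg adjustment over 45037 probe sets. The GEM effect within each background (8 arrays each) and the interaction were fitted separately. The study used 2-group empirical Bayes tests, and the covariate was added here for the main effect. The labels do not state that replicates of a group differ in anything but the mouse, and no scan dates or batches were given in the sources used here. Named genes were those that passed (or the 5 with the smallest p in a direction), up to 4 of smallest p per list, and genes fixed by name. Chosen after their values were seen were Dcstamp, Sar1a, Tssc4, Panx2, Piezo2 and Ubqlnl (arms without overlap) and the granzymes Gzma, Gzmb, Gzme, Gzmk, Gzmm and Gzmn. The same holds for Prf1, Nkg7, Ncr1, Klrc1, Klrd1, Klrk1, Ido1, Krt19, Cxcl2 and Clec4e. The members, the 43 gene lists and this rule were chosen with earlier results of these data known, so a list's count is no independent evidence. Lists are described by counts and medians without a test. Promoters were searched as letters on both strands, and identities are shares of columns in global alignments. The fit was tested on simulated data. Replicate numbers did not pair the arrays. Alternatives covered the covariate, dim probe sets, the variance prior, array weights, scaling, the replicate block, GEM replicates 3 and 4, and single arrays.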

Additional observations from a re-analysis of the deposited data

Results flagged for a closer look

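Of 296 groups of 4 arrays examined, over the named genes and 12 gene lists, 12 had 1 array far from the other 3, where chance gives about 1 in 20 groups. Among named genes these were the highest GEM values of Hacd4 (7.44, replicate 2), Rrm1 (10.29, replicate 4) and Rrm2 (12.11, replicate 4), and the highest control value of Cxcl1 (9.52, replicate 2). The lowest values were those of Etnppl (4.55) and Il23a (4.1) in anti-CD40 replicate 3 and of Ppbp in GEM/anti-CD40 replicate 1 (5.69). Among lists, GEM/anti-CD40 replicate 3 had the lowest mitotic list mean of its group (8.77). The skin keratinocyte list stood high in control replicate 2 (8.35), anti-CD40 replicate 2 (6.66) and GEM/anti-CD40 replicate 3 (5.17), the last by a small margin, and the skeletal muscle list in GEM/anti-CD40 replicate 4 (11.6). No gene named here had an interaction of GEM and antibody that passed after adjustment.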

How the results depend on the processing

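The count of probe sets that rose with GEM was 1 and depended on the fit. It was 0 with a trended and robust variance prior (Gzmc adjusted p = 0.0871) and with GEM replicates 3 and 4 averaged (0.0679), and 4 without the 3 arrays with skin or muscle genes. Leaving out single arrays gave 0 to 3 probe sets higher and 0 lower, with 3 without control replicate 2 (Gzmc, Gzmd, Gzmf) or GEM/anti-CD40 replicate 4 (Gzmc, Il1rn, Cxcl3). Hacd4 passed without anti-CD40 replicate 1 and Ccl9 without GEM replicate 2. Gzmc did not pass without control replicate 1, 3 or 4, anti-CD40 replicate 4, GEM replicate 1, 3 or 4, or GEM/anti-CD40 replicate 1, and its log2 change stayed between 1.86 and 2.24 over these settings. Under the other alternatives run (no antibody covariate, group means, dim probe sets left out, array weights, 75th percentile scaling, quantile normalization, a minimum change) Gzmc was the only probe set that passed.

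In the control IgG background, where 0 probe sets passed, 1 rose with dim probe sets left out (Tcf24), 1 with array weights (Tcf24) and 4 with the trended and robust prior (Cftr, B4galnt4, Tcf24, Etnppl). With GEM replicates 3 and 4 averaged, 2 were higher (Cxcl3, Tcf24) and 4 lower. These 4 had no single gene name and log2 changes of -1.42 to -1.86. Without the arrays with skin or muscle genes 7 were higher and 1 lower. Leaving out single arrays gave 0 to 7 higher and 0 to 1 lower. The anti-CD40 background and the interaction had 0 under each alternative run. The cause of these changes was not tested.

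The replicate numbers did not pair the arrays, since correlations of deviations between same-numbered arrays ran from -0.27 to 0.27 and 1 of 16 arrays correlated best with its own number. With the number as a replicate block 1 probe set rose and 0 fell (Gzmc, log2 change 1.98, adjusted p = 0.00303), and in the 2 backgrounds and the interaction 0 passed.

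Changes near 0 turned sign. Cdkn1a was at -0.0029 with array weights, -0.011 with 75th percentile scaling, -9.4e-04 with quantile normalization and -0.087 to 0.105 without single arrays. Rrm1 was at 9.0e-05 with array weights and -0.043 to 0.041 without single arrays, and Slc29a1 at -7.7e-04 to 0.069. No other gene recomputed turned sign. List medians near 0 also turned sign without single arrays, among them those of the interferon gamma (-0.248 to 0.0997), MHC class II (-0.268 to 0.0044), MHC class I (-0.18 to 0.0039), mitotic (-0.046 to 0.104) and dendritic cell (-0.0054 to 0.156) lists, as did the skeletal muscle (-0.187) and skin (0.175) lists without the 3 arrays that stand apart. Of the list medians, 1202 moved by less than the spread between arrays and 2 by more, those of the dendritic cells with dim probe sets left out (0.366) and of the apoptosis regulators without GEM/anti-CD40 replicate 1 (0.0190).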
